A study of Tulipa gesneriana with 15 samples.

Results

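Early senescence was compared with partial blooming in flowers of the garden tulip (Tulipa gesneriana), 2 stages that lie on either side of full blooming. The comparison takes 6 of the 15 RNA-seq libraries of the series: 3 labelled partial blooming and 3 labelled early senescence. Both stages were named for the comparison as ones with close replicates. Their spread was thus part of the choice, and a small spread makes calls more frequent. The other 9 libraries, 3 each of buds, full blooming and late senescence, show where the genes of the comparison stood before, between and after both stages. All plants are labelled wild type, no treatment is given, and RNA was taken from the entire flower, so petals, stamens and the pistil contribute to each value. Nothing in the labels ties the 3 libraries of a stage to different plants. A p-value here therefore reflects variation among libraries, part or all of which may be technical. The tissue could not be checked against marker genes, because the table pairs no identifier with a gene name, and for the same reason functions are not discussed.

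Petals are short-lived organs. After opening, they enter a programmed senescence in which proteins, membranes and nucleic acids are broken down and nutrients are moved to the rest of the plant before the petals wilt or drop. Senescence of this kind is accompanied in many species by a large change of the transcriptome. In lilies and many of their relatives, petal senescence is regarded as less dependent on ethylene than in carnation or petunia.

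The libraries were close within both stages, which had been named for the comparison for that reason, so this closeness describes the choice and is no result. Over the 39323 genes tested, which reached 1 FPKM in 3 or more of the 6 libraries, Pearson's r of log2(FPKM + 1) across genes was 0.943 to 0.964 within partial blooming and 0.955 to 0.967 within early senescence. FPKM is the number of fragments per unit of gene length and of library size. Between the stages r was 0.771 to 0.828. These correlations are descriptions, as genes do not replicate each other. Early senescence replicate 3 lay nearer to partial blooming, at 0.819 to 0.828, than replicates 1 and 2, at 0.771 to 0.794. The median SD of a gene over 3 libraries was 0.197 log2 units in partial blooming and 0.181 in early senescence. Partial blooming replicate 1 had 36674 genes at 1 FPKM or more, against 38693 and 38990 in replicates 2 and 3, and the early senescence libraries had 36773 to 37094. Outside the comparison, full blooming replicate 3 differed from the other libraries of its stage, so the values of full blooming are given by library. The depth behind the values is unknown, since the table holds no read counts.

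Expression differed between both stages in a large part of the genes, with more genes lower than higher in early senescence on the scale as deposited. Of 39323 tested genes, 6910 (17.6%) rose and 8868 (22.6%) fell from partial blooming to early senescence, together 15778 genes or 40.1% (limma, adjusted p under 0.05 by Benjamini-Hochberg). On the log2(FPKM + 1) scale, rising genes changed by a median of 1.03 and falling genes by a median of -0.92, against -0.08 over all tested genes. This scale understates the change of low genes. By at least 1 log2 unit, 3591 genes rose (9.13% of those tested) and 3955 fell (10.1%). The balance turned among the largest changes: 456 genes rose and 332 fell by at least 3 log2 units, and 90 rose and 41 fell by at least 5. In whole flowers, fewer cells of a type and less RNA per cell cannot be told apart.

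Nearly all called genes had libraries that did not overlap between the stages. In 9068 genes (23.1% of those tested) all 3 early senescence libraries lay above all 3 of partial blooming, and in 12126 genes (30.8%) they lay below. Of the called genes, 6900 of the 6910 that rose and 8855 of the 8868 that fell had no overlap. Calls from 3 libraries against 3 rest on the same values, so this is no separate support for them. Leaving out each of the 6 libraries in turn, 4857 of the genes that rose (70.3%) and 5825 of those that fell (65.7%) were called in the same direction in all 6 fits. Which list was larger depended on the scaling of the libraries. As deposited, 43.8% of called genes were higher in early senescence. With median-ratio scaling this was 53.2% (8233 higher and 7248 lower), as the median change of all genes moved from -0.08 to 0.02, and with quantile normalization it was 49.3% (7666 and 7893).

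**Figure D1:**
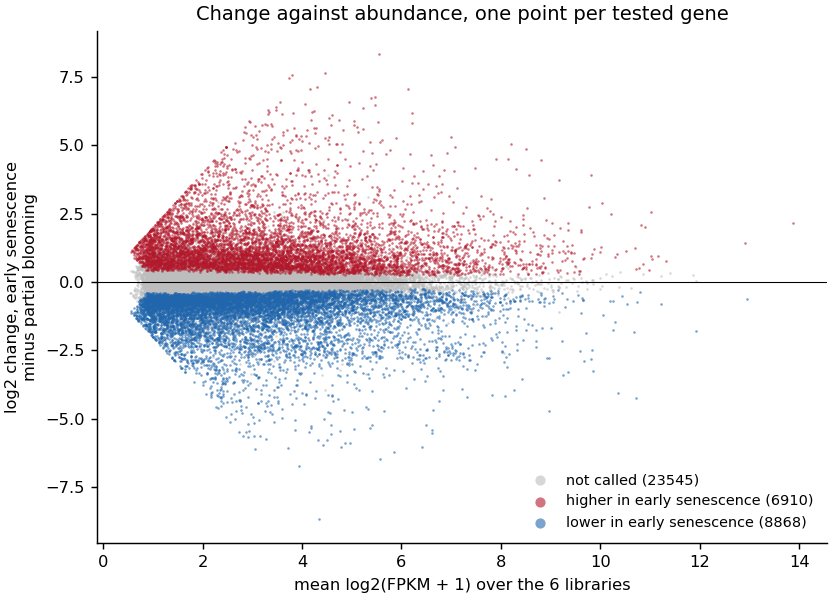
Log2 change from partial blooming to early senescence (y axis, log2(FPKM + 1) scale) against the mean level over the 6 libraries (x axis, same scale), with 1 point per tested gene. Red points are the 6910 genes called higher, blue points the 8868 called lower, and grey points genes not called; changes of 5 log2 units or more occur in both directions, more often upwards.

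Abundant genes were called more often than scarce ones, and the balance of the directions shifted with abundance. Of 12404 genes with a mean of 1 to 3 FPKM over the 6 libraries, 10.8% were higher in early senescence and 16.8% lower. Of 3587 genes at 30 to 100 FPKM, 29.9% were higher and 29.4% lower. Of 306 genes at 300 to 1000 FPKM, 46.1% were higher and 28.8% lower, and of the 65 genes at 1000 FPKM or more, 28 were higher and 24 lower. The median change ran from -0.11 log2 units at 1 to 3 FPKM to 0.26 at 1000 FPKM or more. The 1151 genes with a mean under 1 FPKM were an exception, with 38.7% called; they passed the filter on low values through some of the 6 libraries only.

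**Figure D2:**
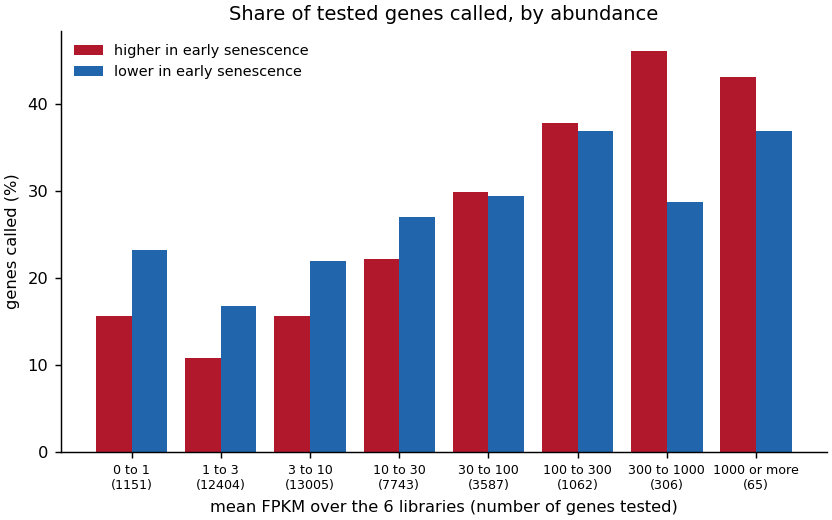
Share of tested genes called higher (red) or lower (blue) in early senescence (y axis, percent) in bins of mean FPKM over the 6 libraries (x axis, number of genes per bin in brackets). Lower calls are the more frequent below 30 FPKM and higher calls at 300 FPKM or more.

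The change reached a large part of all transcripts. Genes that rose held 19.4%, 20.2% and 19.6% of the summed FPKM in the 3 partial blooming libraries and 50.8%, 50.6% and 46.5% in those of early senescence. Genes that fell held 45.3%, 42.9% and 43.0% in partial blooming and 15.3%, 15.5% and 18.6% in early senescence. Early senescence replicate 3 thus had the smallest share of the first set and the largest of the second among its stage. Both sets were chosen by these values, so the shares show size and are not a test. In the libraries that did not enter the choice, the genes that rose held 30.3%, 30.9% and 24.1% in full blooming, 13.7% ± 0.388 (SD, n = 3) in buds and 42.6% ± 5.01 in late senescence. The genes that fell held 32.8%, 31.7% and 35.0% in full blooming, 48.4% ± 2.41 in buds and 23.2% ± 5.37 in late senescence. In both sets full blooming replicate 3 was the library of its stage nearest to partial blooming. Late senescence replicate 2 stood apart from the other libraries of its stage, with 36.9% in the first set against 45.9% and 45.2%, and 29.4% in the second against 20.2% and 20.1%.

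**Figure D3:**
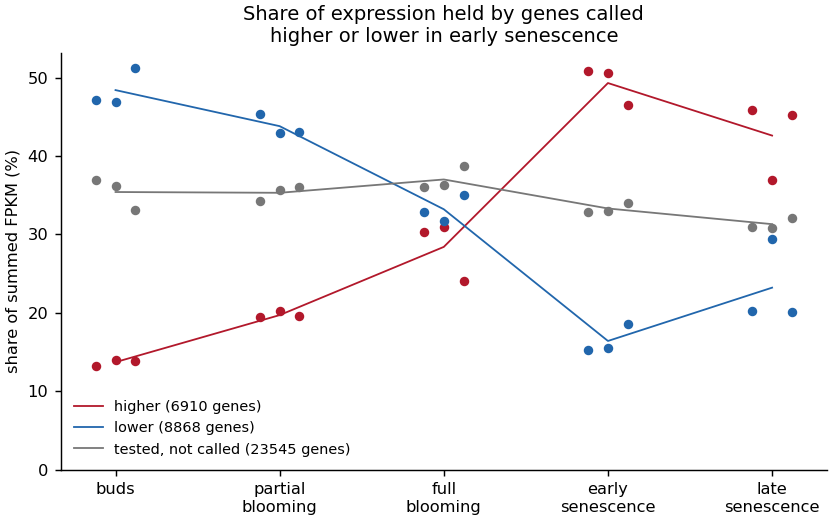
Share of summed FPKM (y axis, percent) held by the 6910 genes called higher in early senescence (red), the 8868 called lower (blue) and the 23545 tested genes not called (grey), at the 5 stages (x axis). Points are libraries in the order of replicates 1 to 3 and lines join stage means; the red and blue sets change places between full blooming and early senescence.

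In the called sets, the gain lay in fewer genes than the loss, in part through 1 gene. Summed over genes, mean FPKM rose by 277091 among the genes that rose. The 10 genes with the largest gains held 19.8% of that sum, the 100 largest held 43.9%, and 150 genes made up 50% of it. Among the genes that fell, the 10 largest losses held 14.5% and the 100 largest 37.7%, and 231 genes made up 50%. The single largest gain held 8.93% of its sum and the single largest loss 2.95%, so the contrast among the 10 largest rests on 1 gene. The sets also differed in size, with 6910 and 8868 genes. These are descriptions of the called sets and were not tested.

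The most abundant genes were exchanged in part. Of the 100 genes with the highest mean in partial blooming, 48 were also among the 100 highest of early senescence. Of the partial blooming 100, 55 fell and 19 rose, and of the early senescence 100, 70 rose and 10 fell. Calls are frequent at this abundance, 74.7% to 80.0% of the tested genes in the bins from 100 FPKM upwards, so 74 and 80 called genes of 100 are near that background. Among the 1000 highest genes of each stage, 618 were shared. Since these genes were ranked on the libraries of the comparison, the counts describe the exchange and do not test it.

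The most abundant genes held a larger share of expression in the early senescence libraries, largely through the single most abundant gene. The design is too small to pass a test of single values. The 100 most abundant genes of a library held 18.9%, 20.1% and 19.1% of the summed FPKM in partial blooming and 22.7%, 22.8% and 22.2% in early senescence, a mean of 19.4% ± 0.611 (SD, n = 3) against 22.6% ± 0.326. The single most abundant gene held 1.13% ± 0.0828 in partial blooming and 3.49% ± 0.353 in early senescence. The number of genes at 1000 FPKM or more was 57, 65 and 60 in partial blooming and 72, 66 and 72 in early senescence, and the summed FPKM was 881428 ± 18050 against 914657 ± 15091. For these 4 values the libraries of both stages did not overlap and the exact permutation test (two-sided) gave p = 0.1, the smallest that 3 libraries against 3 allow. With 10 such values tested the Benjamini-Hochberg adjusted p was 0.143, so none passes a threshold of 0.05. The number of genes at 1 FPKM or more, 38119 ± 1260 against 36903 ± 169, overlapped between the stages (exact permutation p = 0.4). The mean share was larger in early senescence by 2.37 percentage points for the single most abundant gene. It was larger by 2.33 for the 10 and by 3.24 for the 100 most abundant genes. In full blooming replicates 1, 2 and 3 the 100 most abundant genes held 22.5%, 23.0% and 18.6%.

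Among the genes that rose, F01.PB375 had the largest change on the log2 scale. It was at 2.26, 0.78 and 2.14 FPKM in partial blooming and at 1005, 394 and 1503 FPKM in early senescence. All early senescence libraries lay far above those of partial blooming, but they differed among themselves by several-fold, with replicate 2 the lowest. This was a log2 change of 8.32 ± 0.50 (SE) with a limma adjusted p of 9.47e-05, and of 7.91 to 8.87 when each library was left out in turn. Full blooming was at 3.30, 5.98 and 15.4 FPKM, so most of the rise came after it, and late senescence was at 1524, 457 and 662 FPKM. Buds were at 0.90, 1.08 and 1.71 FPKM, close to partial blooming.

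F01.PB75 had the largest rise in mean FPKM and was the most abundant gene of every early senescence library. It was at 6147, 7818 and 7742 FPKM in partial blooming and at 34858, 33282 and 27770 FPKM in early senescence, where replicate 3 was the lowest. All 3 early senescence libraries lay above all 3 of partial blooming. The mean rose 4.42-fold, a log2 change of 2.15 ± 0.15 (SE) with a limma adjusted p of 0.000158. Under quantile normalization, which gives the highest gene of every library the same value, the log2 change was 1.28. Its share of all FPKM was 0.820% ± 0.0916 (SD, n = 3) in partial blooming and 3.49% ± 0.353 in early senescence, and it alone made up 8.93% of the summed gain. It was at 13104, 14554 and 12873 FPKM in full blooming. Its mean was 3660 ± 654 FPKM in buds and 43458 ± 8436 in late senescence, so its stage means followed the order of the stages.

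Among the genes that fell, F01.PB40306 had the largest change on the log2 scale. It was at 511, 317 and 428 FPKM in partial blooming and is listed at 0 in all 3 early senescence libraries, so no fold is given. The limma adjusted p was 1.05e-05. A value of exactly 0 may also stand for an estimate that failed. In full blooming it was already at 18.8, 12.6 and 164 FPKM, replicate 3 being the highest, and in late senescence it was at 6.46, 0.58 and 4.53 FPKM. Buds held the highest values, at 763, 594 and 761 FPKM.

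F01.PB2621 had the largest fall in mean FPKM. It was at 6272, 8422 and 7334 FPKM in partial blooming, among the most abundant genes there, and at 358, 298 and 545 FPKM in early senescence, with no overlap between the stages. The mean was 18.3-fold lower in early senescence, a log2 change of -4.23 ± 0.24 (SE) with a limma adjusted p of 7.41e-05. Full blooming was at 3049, 2688 and 5040 FPKM, with replicate 3 nearest to partial blooming. In late senescence the gene was at 2679, 1071 and 2094 FPKM, each above all 3 early senescence libraries, a difference that was not tested here.

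**Figure D4:**
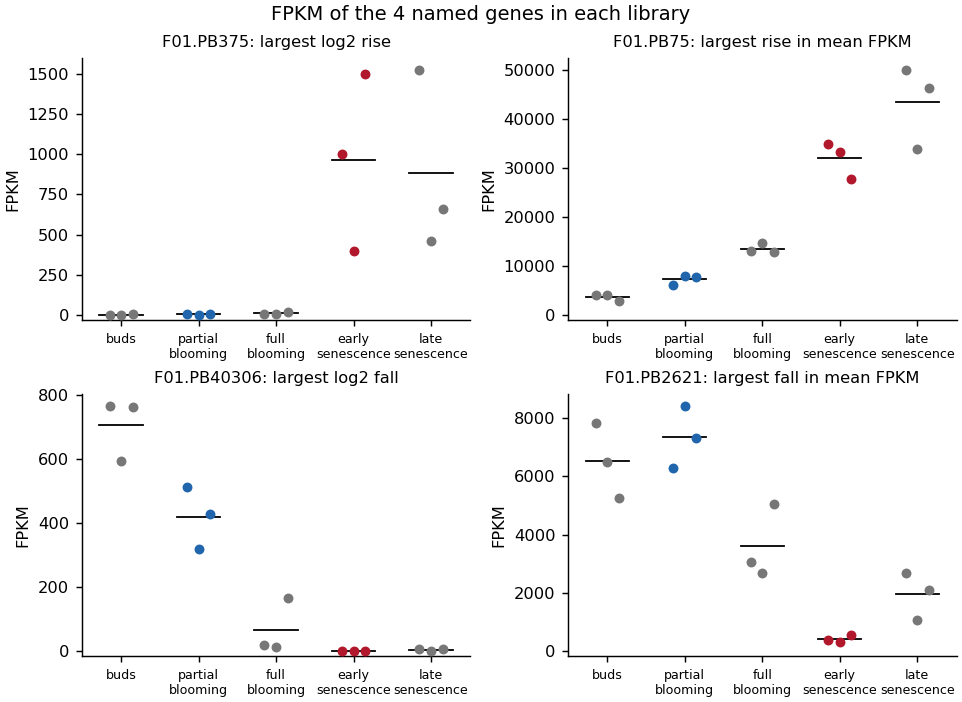
FPKM (y axis, linear) of the 4 named genes in each library at the 5 stages (x axis). Points are replicates 1 to 3 from left to right, blue for partial blooming, red for early senescence and grey for the other stages, and black lines are stage means. F01.PB75 stands at 27770 FPKM or more in each early senescence library, and F01.PB40306 is listed at 0 in all 3.

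Few genes were seen at 1 of both stages and not at the other. Under 0.1 FPKM in all 3 partial blooming libraries and at 1 or more in all 3 of early senescence were 146 genes, with a median level of 3.88 FPKM in early senescence and a highest mean of 198. In the opposite direction there were 85 genes, with a median of 3.55 FPKM in partial blooming and a highest mean of 419. Of the 146 genes, 112 were at 1 or more in all 3 late senescence libraries, 9 in all 3 of full blooming and 6 in all 3 buds. Of the 85 genes, 63 were at 1 or more in all 3 buds, 18 in all 3 full blooming libraries and 28 in all 3 of late senescence. In full blooming replicates 1, 2 and 3, 31, 33 and 69 of the 85 genes and 22, 25 and 20 of the 146 were at 1 or more. Both counts depend on single libraries, since a rule on fewer libraries is met more easily. The 85 became 262 without partial blooming replicate 1, 131 without early senescence replicate 1 and 180 without replicate 3. The 146 became 228 without partial blooming replicate 1, 239 without replicate 3 and 246 without early senescence replicate 3. Genes near these limits are scarce, and at unknown depth a gene under 0.1 FPKM is not shown to be absent. How many of the 146 and 85 genes were seen at other stages was not set against genes of a like level. Libraries differed in their genes at 1 FPKM or more, from 35738 in full blooming replicate 1 to 42158 in late senescence replicate 3.

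The libraries of full blooming, which did not enter the choice of genes, lay nearer to partial blooming than to early senescence. For each gene that changed by at least 1 log2 unit, the level of another library was expressed as a position between the stage means, 0 being partial blooming and 1 early senescence. For the 3591 genes that rose, the median position in full blooming replicates 1, 2 and 3 was 0.21, 0.22 and 0.17. For the 3955 genes that fell it was 0.48, 0.45 and 0.18. On the values as deposited, the falling genes thus stood further along than the rising ones in replicates 1 and 2. In replicate 3 both sets stood at a like position. Replicates 1 and 2 had 35738 and 35765 genes at 1 FPKM or more, against 41044 in replicate 3. Positions were not computed on rescaled libraries, so a part played by library-wide level was not tested. On the mean of the 3 libraries the positions were 0.21 and 0.37, and 0.21 and 0.46 without replicate 3. The choice of genes by the difference between both stages affects these positions, and the difference between the sets was not tested.

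In late senescence most genes that had risen stayed within 1 log2 unit of early senescence, as did 81.4% of all tested genes. On the values as deposited, many of the genes that had fallen were higher again, some of them at or above their partial blooming mean. Of the 3591 genes that rose by at least 1 log2 unit, 2773 (77.2%) were within 1 log2 unit of their early senescence mean in late senescence, 398 (11.1%) were higher still by that amount and 420 (11.7%) were lower by it. Of the 3955 genes that fell, 2005 (50.7%) stayed within 1 log2 unit, 236 (5.97%) were lower still and 1714 (43.3%) were higher by at least that amount. Late senescence replicate 2 bears on how many were back at or above their partial blooming mean, with a difference of at least 1 log2 unit from early senescence: 1044 (26.4%) on the mean of the 3 libraries and 679 (17.2%) without that replicate, an alternative chosen after the data were seen. Without it, 1639 (41.4%) of the genes that fell were higher by at least 1 log2 unit than in early senescence. Over all 39323 tested genes, 32005 (81.4%) were within 1 log2 unit of early senescence in late senescence, 4722 were higher by at least that amount and 2596 lower. For a return upwards to the partial blooming mean, no share over all tested genes was computed. Summed FPKM was 1016148 to 1094997 in the late senescence libraries, against 898621 to 928582 in early senescence. Genes at 1 FPKM or more numbered 40772 to 42158 against 36773 to 37094. Counts on rescaled libraries were not computed. The genes were chosen on the early senescence libraries, and how far that choice moves the later values towards the middle was not tested. By the stage of the highest mean, 1777 of the genes that rose peaked in early senescence and 1733 in late senescence. Early senescence was the stage of the lowest mean for 2861 (72.3%) of the genes that fell, and late senescence for 905. By their choice, genes that rose could not peak in partial blooming, nor genes that fell be lowest there. The choice also favours early senescence as the stage of the highest mean of genes that rose and the lowest of genes that fell. Shares over all tested genes were not computed for these counts.

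Buds lay on the side of partial blooming for both sets. The median position of the 3 bud libraries was -0.03, -0.01 and -0.05 for the genes that rose and -0.10, -0.10 and -0.13 for those that fell. Of the genes that fell by at least 1 log2 unit, 2107 (53.3%) had their highest mean in buds and 1038 (26.2%) in partial blooming. Of those that rose, 1784 (49.7%) had their lowest mean in buds and 1273 (35.4%) in partial blooming. By their choice, genes that fell could not be highest in early senescence, nor genes that rose lowest there. These shares were not computed over all tested genes.

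Each of the 6 libraries was also placed by genes that were called without it and changed by 1 log2 unit or more. Held out in this way, the partial blooming libraries had median positions of -0.01 to 0.06, and early senescence replicates 1 and 2 of 1.01 to 1.05. Early senescence replicate 3 stood at 0.84 for the 3693 genes called higher and at 0.83 for the 4194 called lower, short of its stage in both directions. It was the least changed of the 3 early senescence libraries in 68.2% of the higher and 68.6% of the lower genes. Calling these genes without replicate 3 may favour this, and the share was not computed for replicates 1 and 2. The values of replicate 3 were nonetheless nearer to early senescence than to partial blooming in 92.0% of the higher and 93.7% of the lower genes. In the other 5 libraries the value was nearer to the own stage in 87.4% to 97.9% of the genes, the lowest share being that of partial blooming replicate 1 for lower genes. Without early senescence replicate 3, 6312 genes were called higher and 7809 lower.

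**Figure D5:**
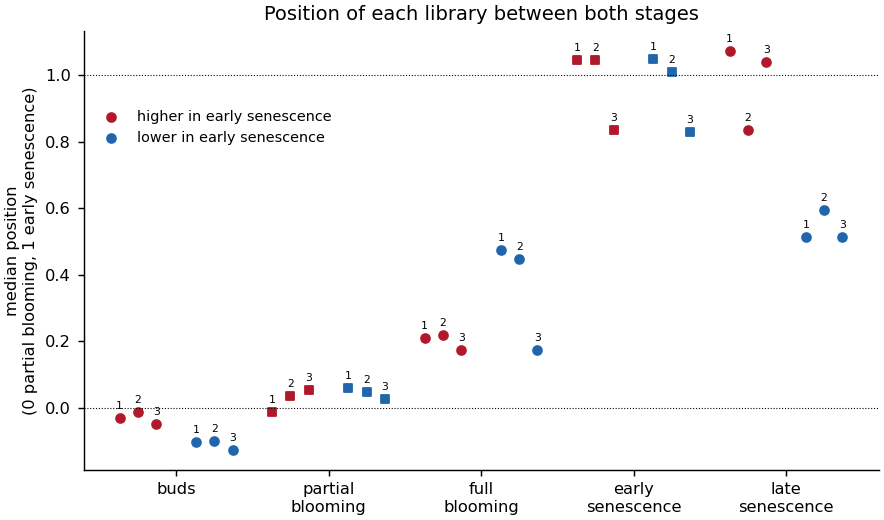
Median position of each library (y axis, 0 for the partial blooming mean and 1 for that of early senescence) over genes called higher (red) or lower (blue) by at least 1 log2 unit, at the 5 stages (x axis), with replicate numbers above the points. Squares are libraries of the comparison, each placed by genes called without it, and circles are other libraries; early senescence replicate 3 stands at 0.84 and 0.83, under its stage's other libraries, and full blooming replicate 3 at 0.17 and 0.18.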

How the data were processed

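The authors deposited 1 table of FPKM values with 1 column per library for 76388 identifiers; the unit is read from the table's name and its values. The tools named, per the submitters' processing notes, are TopHat2 2.0.12, Bowtie2 2.2.3, DESeq 1.18.0 and HTSeq 0.6.1, without a role or an order. Which reference, annotation or filter was applied is not given in the sources used here. Columns were matched to libraries by the code in the labels.

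Genes at 1 FPKM or more in at least 3 of the 6 libraries (39323) were tested on log2(FPKM + 1) with limma 3.58.1 (R 4.3.3), with the mean-variance trend, on these 6 libraries only, two-sided, and calls were made at an adjusted p under 0.05 (Benjamini-Hochberg over all tested genes). The fit on all 15 libraries, which takes the spread from the other stages too, was an alternative. Scripts were tested on simulated data. The comparison, tests and rules were chosen with earlier results of these data known. Named genes, from called genes without overlap and with a mean of at least 10 FPKM in the higher stage, were the largest rise and fall on the log2 scale and in mean FPKM. Alternatives were a pseudocount of 0.1, a stricter filter (5 FPKM) and none, median-ratio scaling, quantile normalization, a replicate block, no trend, library quality weights, a tested minimum change of 1 log2 unit, and leaving out each library, with the tested genes kept. Lists of senescence and floral organ genes could not be matched to identifiers and were not used.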

Additional observations from a re-analysis of the deposited data

How the results depend on the processing

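Under the alternatives 139 values were computed again. Calls were kept, counts changed by under 1.5 times, and shares and positions moved by less than their spread in 126 of them, and 13 moved further. The 4 named genes kept their direction and call under each alternative run. A tested minimum change of 1 log2 unit, which passes fewer genes by construction, gave 1304 higher and 1126 lower genes. The stricter filter, with fewer genes tested, gave 5860 lower genes. Over fits leaving out 1 library, genes seen in partial blooming and not in early senescence numbered 107 to 262, and the reverse 166 to 246. The median position of rising genes in full blooming was 0.258 over all called genes and 0.234 over those called in all fits without 1 library; the cause was not tested. The median change of all genes turned from -0.082 to 0.016 with median-ratio scaling, and the larger list of calls from lower to higher genes (8233 against 7248), as it did with the tested minimum change. Fitted on all 15 libraries, 5945 genes were higher and 6625 lower, of which 5721 and 6445 were among the calls from 6 libraries. The replicate block gave 5867 higher and 7205 lower genes. The labels do not say that a number marks a shared plant or day, and deviations of same-numbered libraries correlated at -0.121, -0.025 and -0.034, with no library closest to its own number, so the numbers were not taken as pairs. Unknown depth limits statements on genes near 0.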
